A study of Mus musculus with 6 samples.

Results

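A set of 9 growth factor genes was followed in alveolar macrophages, the phagocytes of the air spaces of the lung, after bleomycin injury. They were chosen by name from the ligands of 4 families: Pdgfa, Pdgfb and Pdgfc of the platelet-derived growth factors (PDGF), the insulin-like growth factor Igf1, Tgfa, Hbegf and Areg of the epidermal growth factor (EGF) family, and Vegfa and Vegfb of the vascular endothelial growth factors (VEGF). All 9 had a row among the 22962 genes of the table. C57BL/6 mice received saline (3 libraries, replicates 1, 2 and 3) or bleomycin (3 libraries, replicates 1, 2 and 5) into the trachea, and lavage cells were taken after 2 weeks. Bleomycin, which cuts DNA strands, is a common means of producing lung fibrosis in mice. The cells were not sorted: those that adhered to plastic within 30 min were lysed for total RNA, so other adherent lavage cells could be included. Plating was with 10% fetal bovine serum (FBS) for every library, and the part of serum in the values was not tested. Neither the age and sex of the mice nor any pooling of animals is stated in the labels. Because the labels do not say that libraries came from separate mice, p-values measure the spread between these libraries, which may be partly technical.

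These ligands carry signals from macrophages to the cells that rebuild an injured lung. PDGF chains pair into dimers that bind the receptors Pdgfra and Pdgfrb on fibroblasts and pericytes and drive their division and migration. Igf1 acts through Igf1r on fibroblasts and epithelium, and its access to the receptor is set by binding proteins. Tgfa, Hbegf and Areg are made as membrane proteins, are released by metalloproteinases of the ADAM family, and bind Egfr, chiefly on epithelium. Vegfa drives vessel growth and leakiness through Kdr and Flt1, while Vegfb binds Flt1.

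Values are normalized read counts, the deposited unit, and each library rested on 27654799 to 37147983 reads recovered from them. Of the 13512 genes that reached a value of 10 in 3 or more libraries, 9.76% rose and 3.9% fell after bleomycin (limma, adjusted p under 0.05), 1319 and 527 genes, or 1114 and 752 after quantile normalization. The numbers were 789 and 204 when bleomycin replicate 2 was left out and 759 and 182 when replicate 5 was, and the falls numbered 333 and 335 when saline replicate 2 or 3 was left out. Markers of the labelled cell type were abundant in all 6 libraries, with Siglecf at 12651 to 16187 in saline and 7228 to 8182 in bleomycin libraries. Of 8 alveolar macrophage markers 4 fell and 0 rose, and of 9 markers of monocyte-derived macrophages 9 rose. In bulk RNA, fewer cells of a type and less RNA per cell cannot be told apart, and this holds for every gene below.

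Of the 9 ligands, 5 rose (Pdgfa, Pdgfb, Igf1, Hbegf and Vegfa) and 0 fell, beside 9.76% and 3.9% of all tested genes. A further 3 did not pass the test (Pdgfc, Areg and Vegfb), and Tgfa was under the filter for testing. The ligands were chosen with earlier results of these data known, so their count is a description only. The median log2 change of the 8 tested ligands was 2.49, or 2.58 over 9 with Tgfa at its lower bound, against -0.01 over all tested genes. Pdgfa entered the test through its bleomycin libraries alone, and a gene that passes the filter in this way had to differ. Both medians include Pdgfa, and that of 2.58 includes Tgfa, which at 0 reads in saline also had to come out higher. These medians describe the list and add no support. In 6 of the 8 tested ligands, Pdgfa among them, there was no overlap between groups and bleomycin was higher, as in 17.2% of all tested genes. The values of Tgfa, not tested, did not overlap either. The 5 rises passed under all 18 alternative settings run, which included other normalizations, edgeR and DESeq2 on recovered reads, and leaving out each library in turn. Among the settings, a fit with the replicate number as a block assumes a pairing that the libraries do not show, so passing it adds no support. In every setting with a filter Pdgfa again entered through bleomycin libraries alone, as did Hbegf at a minimum of 50, so these passes add no support.

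**Figure D1:**
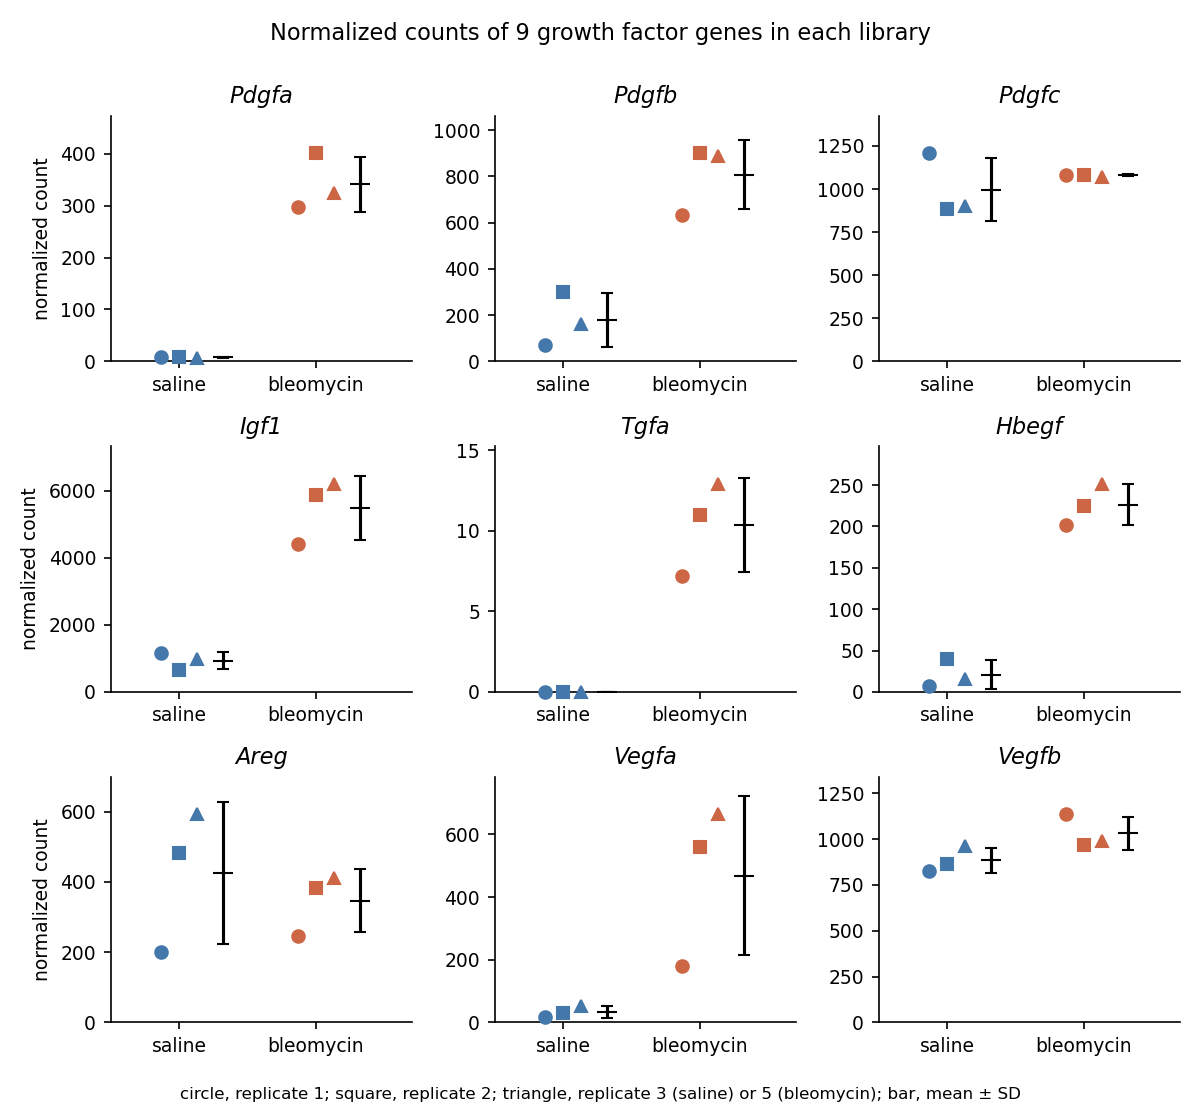
Normalized count (vertical axis, linear, from 0) of each of the 9 ligand genes in the 3 saline and 3 bleomycin libraries, 1 symbol per library, with the mean ± SD beside them. Pdgfa, Pdgfb, Igf1, Tgfa, Hbegf and Vegfa are higher in every bleomycin library than in any saline library by a wide margin, whereas Pdgfc and Areg overlap between the groups and Vegfb is separated by a narrow gap.

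Within the PDGF family, the A and B chains rose and the C chain did not. Pdgfa (ENSMUSG00000025856, chromosome 5, 138976014 to 138997370, minus strand), which encodes the chain that as a homodimer binds Pdgfra alone, had values of 7.84, 7.61 and 7.42 in saline replicates 1, 2 and 3, against 298, 401 and 324 in bleomycin replicates 1, 2 and 5. The saline values, equal to 8, 7 and 7 reads, were nearly the same, and every bleomycin library was far above them. The change was 39.4-fold (log2 5.30 ± 0.25 SE, 95% interval 4.72 to 5.87, limma adjusted p = 1.67e-05). Pdgfb (ENSMUSG00000000489, chromosome 15, 79995874 to 80014977, minus strand), whose product binds both PDGF receptors, had 69.6, 301 and 160.1 in saline, against 633, 899.9 and 889 in bleomycin libraries. Saline replicate 2 stood above the other saline libraries, but the groups did not overlap, and the change was 5.29-fold (log2 2.40 ± 0.45, adjusted p = 0.00898). It was 8.39-fold without saline replicate 2 and bleomycin replicate 1 together.

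Pdgfc (ENSMUSG00000028019, chromosome 3, 81036416 to 81214040, plus strand) encodes a chain secreted in latent form that becomes active once a protease removes its CUB domain. Its values were 1208, 882 and 900.4 in saline, against 1084, 1081 and 1072 in bleomycin libraries. The bleomycin values lay inside the saline range and were almost identical to each other (1079 ± 6.2 SD, n = 3). The log2 change was 0.13 ± 0.15 (adjusted p = 0.662), and its 95% interval, -0.20 to 0.46, lay entirely below that of Pdgfa. Plat, the tissue plasminogen activator and a known activator of PDGF-C, went from 1.96, 1.09 and 1.06 to 13.5, 41.8 and 53.4 (log2 3.79 ± 0.62, adjusted p = 0.00469), a rise that rests on 4 reads in saline, where it was under the filter, so that it entered the test through bleomycin libraries alone, and whose size moved with the setting, from log2 2.54 at a pseudocount of 5 to 4.71 by DESeq2. Its relative Plau, urokinase, rose from 1006, 865 and 1650.1 to 3742, 4141 and 4012 (log2 1.81 ± 0.22, adjusted p = 0.00118). Pdgfa and Pdgfc share exonic bases with antisense transcripts on the opposite strand, and because the strand setting of the counting is not given, reads of such pairs could not be told apart.

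Igf1 was the most abundant of the 9 by normalized count after bleomycin. Igf1 (ENSMUSG00000020053, chromosome 10, 87858265 to 87937042, plus strand) had 1174, 649.7 and 975 in saline, against 4397, 5865 and 6209.6 in bleomycin libraries. The lowest bleomycin library, replicate 1, was well above the highest saline library, and the change was 5.99-fold (log2 2.58 ± 0.22, 95% interval 2.07 to 3.09, adjusted p = 0.000273). Its relative Igf2 was under the test filter, at 0 to 4.35 in saline and 5.39 to 14.7 in bleomycin libraries. Of the receptors, Igf1r, which transmits the signal, did not pass (log2 0.53 ± 0.35, adjusted p = 0.408), with 77.5, 68.4 and 72.1 in saline, against 59.3, 130.8 and 149.98 in bleomycin libraries. Igf2r, the scavenging receptor that also sorts mannose 6-phosphate tagged enzymes to lysosomes, rose from 35.3, 76.1 and 32.9 to 754, 1265 and 1769.6 (log2 4.71 ± 0.39, adjusted p = 0.000219), and its log2 change was 5.42 without saline replicate 2 and bleomycin replicate 1 together.

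Of 13 genes of IGF binding proteins and their proteases, 10 were under the filter. The 3 that were tested all rose (median log2 3.75), beside 9.76% of all tested genes. With so few genes this count shows nothing particular to the list. Of the 3 genes, Igfbp7 and Htra1 entered the test through their bleomycin libraries alone. Igfbp4, under a value of 10 in saline replicate 2, also needed a bleomycin library to enter. Igfbp4, which binds Igf1 and holds it from the receptor, had 10.8, 2.17 and 15.9 in saline, against 87.1, 180.2 and 219 in bleomycin libraries (log2 4.15 ± 0.63, adjusted p = 0.00343), or log2 3.43 without saline replicate 2. Igfbp7 had 2.94, 3.26 and 9.54 in saline, against 70.07, 80.2 and 73.3 in bleomycin libraries (log2 3.75 ± 0.46, adjusted p = 0.00122), and it shares exons with Polr2b on the opposite strand. Htra1, a secreted serine protease that cleaves IGF binding proteins, had 0, 8.69 and 8.48 in saline, against 23.4, 87.9 and 95.7 in bleomycin libraries (log2 3.72 ± 0.94, adjusted p = 0.0324). It did not pass without bleomycin replicate 2 or 5 (adjusted p = 0.117 and 0.126) or with no intensity trend (0.078), and it was log2 2.63 without saline replicate 1 and 4.36 without bleomycin replicate 1.

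Among the EGF-family ligands, Hbegf rose, Tgfa appeared at a low level, and Areg did not pass. Heparin-binding EGF-like growth factor, Hbegf (ENSMUSG00000024486), had 6.86, 40.2 and 15.9 in saline, against 202, 225 and 252 in bleomycin libraries. The bleomycin values lay close together, and the spread lay among the saline libraries, of which replicate 2 was highest. The change was 12.8-fold (log2 3.68 ± 0.53, 95% interval 2.48 to 4.89, adjusted p = 0.00257), or 19.6-fold without saline replicate 2 and 20.7-fold without saline replicate 2 and bleomycin replicate 1 together. Tgfa (ENSMUSG00000029999, chromosome 6, 86195223 to 86275719, plus strand), transforming growth factor alpha, had 0 reads in each saline library and 8, 10 and 15 reads, or values of 7.19, 10.99 and 12.9, in bleomycin replicates 1, 2 and 5. Against a floor of 3 reads over the saline group it was at least 9.96-fold higher. Only 2 libraries reached a value of 10, so Tgfa was not tested, but with no filter it passed (adjusted p = 0.00301). In settings with a filter it could enter the test only through its bleomycin libraries. Its exons overlap a predicted transcript on the opposite strand.

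Areg (ENSMUSG00000029378, chromosome 5, 91139599 to 91148432, plus strand) encodes amphiregulin, a ligand of low affinity for Egfr that many leukocytes make in tissue repair. It had 200.03, 481 and 593 in saline, against 245, 382 and 412 in bleomycin libraries, so that the bleomycin range lay inside the saline range. The log2 change was -0.19 ± 0.39 (adjusted p = 0.824), with a wide 95% interval of -1.07 to 0.70, and its sign turned positive without saline replicate 3 (log2 0.12) or bleomycin replicate 1 (log2 0.04), or without saline replicate 2 and bleomycin replicate 1 together (log2 0.20). Ereg, epiregulin, a neighbour of Areg on chromosome 5, had 609.9, 915 and 1548 in saline, against 538, 779 and 628 in bleomycin libraries (log2 -0.57 ± 0.31, adjusted p = 0.299). Egf was low throughout, with 8.08 to 25 over the 6 libraries (log2 0.35 ± 0.53, adjusted p = 0.753), and Btc had 0 reads in saline and 13 in bleomycin libraries. The promoters of Areg and Tgfa are shown because the pair differs in both level and behaviour: Areg had reads in every saline library and Tgfa in none. They are the 250 bases before the RefSeq start on GRCm38.p6, plus strand, chr5:91139349-91139598 and chr6:86194972-86195221, and capitals mark the motifs searched.
Areg: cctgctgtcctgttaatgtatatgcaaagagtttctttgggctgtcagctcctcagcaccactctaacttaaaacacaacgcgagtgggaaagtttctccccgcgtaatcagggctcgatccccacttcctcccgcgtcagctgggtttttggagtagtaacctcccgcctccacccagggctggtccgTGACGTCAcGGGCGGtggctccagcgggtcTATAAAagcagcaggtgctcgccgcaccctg
Tgfa: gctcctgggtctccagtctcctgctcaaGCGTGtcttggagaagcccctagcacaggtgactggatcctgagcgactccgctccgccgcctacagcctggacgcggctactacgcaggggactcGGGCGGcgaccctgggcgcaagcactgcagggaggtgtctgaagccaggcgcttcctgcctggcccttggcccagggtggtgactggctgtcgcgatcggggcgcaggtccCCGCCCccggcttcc
The motifs, sought on both strands, were the GC box GGGCGG, the TATA box TATAAA, the CCAAT box CCAAT, the AP-1 site TGANTCA, the hypoxia response core ACGTG or GCGTG, and the cyclic AMP response element TGACGTCA. In that order they occur in 32.7%, 12.4%, 33.8%, 6.75%, 38.6% and 1.55% of the 32851 such windows. The Areg window held 1 cyclic AMP response element, 1 GC box and 1 TATA box. The Tgfa window held 2 GC boxes and 1 hypoxia response core, and its GC content was 69.2%, against 57.2% in Areg and a median of 52.4% over all windows.

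Vegfa rose and Vegfb did not pass. Vegfa (ENSMUSG00000023951, chromosome 17, 46016993 to 46032369, minus strand) had 16.7, 30.4 and 52.0 in saline, against 181, 560.4 and 665 in bleomycin libraries. Bleomycin replicate 1 stood apart, at 181, but remained above every saline library. The change was 13.2-fold (log2 3.72 ± 0.54, 95% interval 2.48 to 4.96, adjusted p = 0.00283), and 19.98-fold without saline replicate 2 and bleomycin replicate 1 together. Vegfb (ENSMUSG00000024962, chromosome 19, 6982473 to 6987651, minus strand) had 826, 866 and 961 in saline, against 1136, 970.2 and 988 in bleomycin libraries. Every bleomycin value was above every saline value, but the gap was small, and the change did not pass (log2 0.22 ± 0.13, 95% interval -0.07 to 0.51, adjusted p = 0.33). The promoters of this pair are given as the same kind of window, on the minus strand at chr17:46032378-46032627 and chr19:6987652-6987901, because Vegfa rose from a low level while Vegfb was high in both groups.
Vegfa: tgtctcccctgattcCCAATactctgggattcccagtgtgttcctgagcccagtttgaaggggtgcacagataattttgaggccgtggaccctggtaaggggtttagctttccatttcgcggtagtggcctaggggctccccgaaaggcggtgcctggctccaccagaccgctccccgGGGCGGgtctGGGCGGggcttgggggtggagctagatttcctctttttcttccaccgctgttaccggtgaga
Vegfb: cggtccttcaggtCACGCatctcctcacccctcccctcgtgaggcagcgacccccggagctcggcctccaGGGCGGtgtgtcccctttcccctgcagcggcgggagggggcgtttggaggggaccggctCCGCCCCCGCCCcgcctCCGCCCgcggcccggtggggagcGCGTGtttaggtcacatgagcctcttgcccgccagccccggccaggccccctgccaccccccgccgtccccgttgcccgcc
With the same motifs in capitals, this Vegfa window held 2 GC boxes and 1 CCAAT box. The window of a second RefSeq start of Vegfa, not shown because 218 of its 250 bases are exonic, held 1 GC box, 1 CCAAT box and 2 hypoxia response cores. The Vegfb window, with a GC content of 76.4% against 59.2% in the Vegfa window shown, held 4 GC boxes and 2 hypoxia response cores. These are matches of letters, and binding there was not measured. RefSeq windows were found for 7 of the 9 ligands, and those of Pdgfa and Igf1 are not shown because they run into annotated exons.

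**Figure D2:**
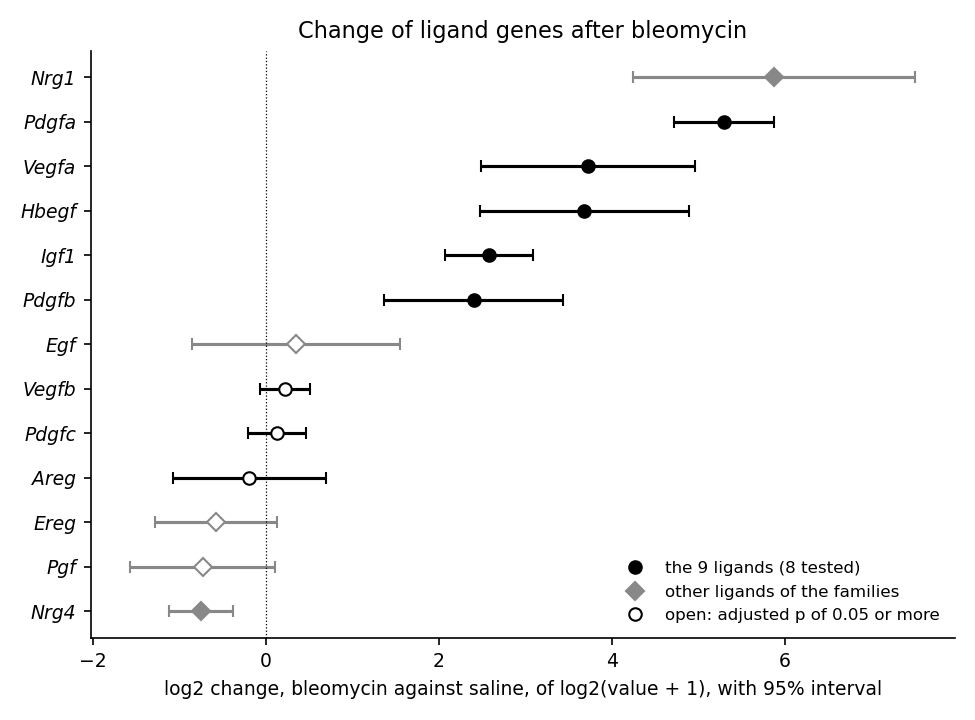
Log2 change, bleomycin against saline, of log2(value + 1) with its 95% interval (horizontal axis) for the 8 tested ligands (black circles) and the other tested ligands of the same families (grey diamonds); open symbols did not pass the test. Pdgfa, Vegfa, Hbegf, Igf1 and Pdgfb lie between 2.40 and 5.30 with intervals clear of 0, and the intervals of Vegfb, Pdgfc and Areg include 0.

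Levels of different genes were compared per kb of annotated exon. In saline libraries the order was Vegfb (551 ± 43.2 normalized counts per kb, SD, n = 3), Areg (349.6 ± 167), Pdgfc (196 ± 36), Igf1 (94.2 ± 26.7), Pdgfb (42.5 ± 28), Vegfa (7.71 ± 4.15), Hbegf (4.34 ± 3.57), Pdgfa (2.44 ± 0.0677) and Tgfa, at 0. In bleomycin libraries it was Vegfb (643 ± 56.9), Igf1 (554 ± 97.2), Areg (285 ± 73.2), Pdgfc (212 ± 1.22), Pdgfb (194 ± 36.2), Pdgfa (109 ± 17.1), Vegfa (109 ± 59.5), Hbegf (46.8 ± 5.13) and Tgfa (1.6 ± 0.45). Several neighbours could not be ordered beyond their spread. In saline the library values overlapped between Areg and Pdgfc, Igf1 and Pdgfb, Vegfa and Hbegf, and Hbegf and Pdgfa. After bleomycin they overlapped between Vegfb and Igf1, Areg and Pdgfc, Pdgfc and Pdgfb, Pdgfa and Vegfa, and Vegfa and Hbegf.

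In the make-up of the PDGF transcripts, the shares of the A and B chains were larger and that of the C chain smaller in every bleomycin library than in any saline library. Of the summed PDGF value per kb, Pdgfa made up 0.98%, 0.983% and 1.09% in saline replicates 1, 2 and 3, against 20.7%, 23.1% and 19.7% in bleomycin replicates 1, 2 and 5. The share of Pdgfb was 6.52%, 29.1% and 17.7% in saline, against 33.02%, 38.8% and 40.4% in bleomycin libraries, and that of Pdgfc 92.5%, 69.9% and 81.2% against 46.2%, 38.1% and 39.9%. Pdgfd had no row in the table and is not in the sum.

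In the EGF family, summed without the neuregulins, Areg and Ereg led in every library. Areg made up 52.2% to 63% of the summed value per kb in saline and 53.2% to 61.6% in bleomycin libraries, and Ereg most of the rest, 35.2% to 46.9% and 27.6% to 34.3%. Hbegf made up 0.45%, 1.32% and 0.379% in saline, against 11.02%, 8.31% and 9.45% in bleomycin libraries, while Tgfa stayed at no more than 0.362%. With the neuregulins Nrg1 to Nrg4 in the sum, Nrg4 made up 23.1%, 13.9% and 7.92% in saline, against 12.1%, 9.06% and 8.04% in bleomycin libraries, Areg 39.7% to 54.2% and 45.9% to 54.6%, and the Hbegf share differed by 7.79 points. Among the VEGF ligands Vegfb led in every library, with 94.7% to 95.5% in saline and 78.1% to 93.1% in bleomycin. Vegfa made up 0.722%, 1.25% and 1.92% in saline, against 5.54%, 17.5% and 19.7% in bleomycin libraries. For Pdgfa, Hbegf and Vegfa the shares differed by 20.1, 8.88 and 12.9 percentage points, each with p = 0.1 in the two-sided exact permutation test, the smallest p that 3 against 3 libraries can give (0.1 also after Benjamini-Hochberg adjustment over the 3 tests). Without division by exon length the differences were 14.6, 16.8 and 26.1 points.

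**Figure D3:**
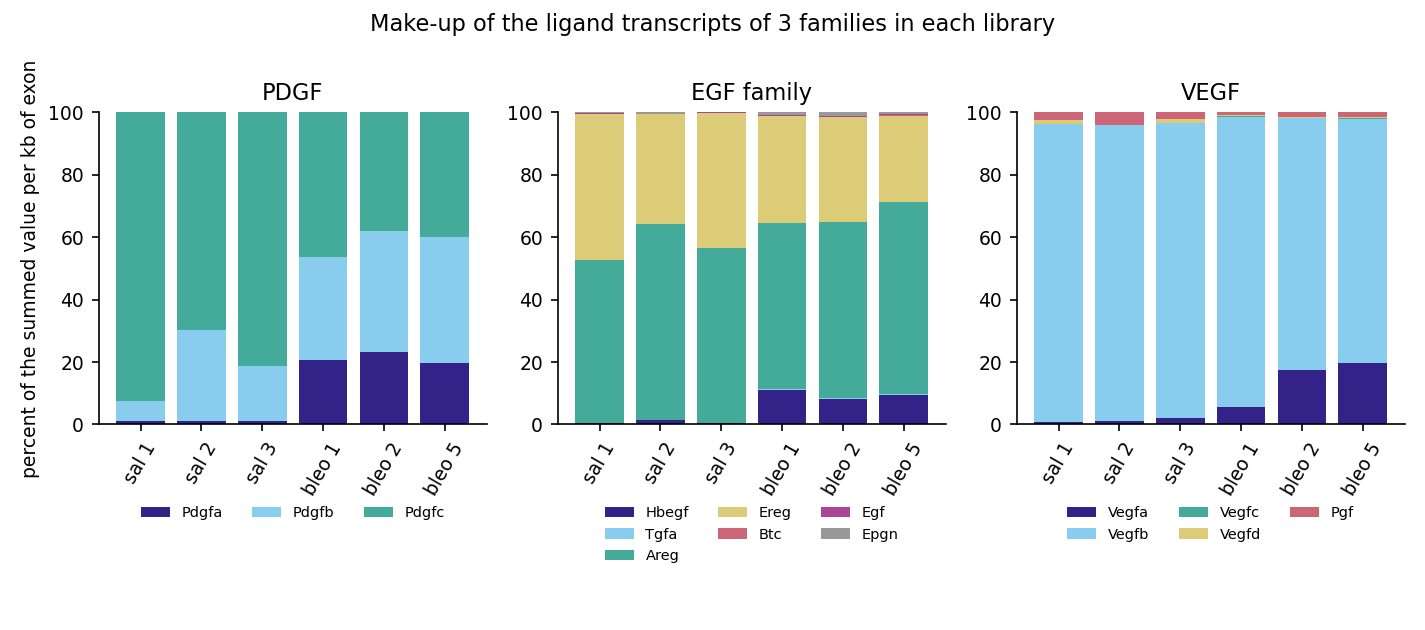
Make-up of the ligand transcripts of the PDGF, EGF and VEGF families in each library, as percent of the family's summed normalized count per kb of exon (vertical axis, 0 to 100), with 1 bar per library. The Pdgfa segment grows from 0.98% to 1.09% in saline to 19.7% to 23.1% in bleomycin libraries, Areg and Ereg fill most of every EGF bar, and Vegfb fills most of every VEGF bar.

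The other ligands of these families, 13 in the list, gave 5 that could be tested, of which 1 rose and 1 fell (median log2 -0.57; 9.76% of all tested genes rose and 3.9% fell). With so few genes these counts, and those of the lists that follow, show nothing particular to a list. Nrg1, neuregulin 1, a ligand of Erbb3 and Erbb4, had 0, 1.09 and 5.3 in saline, against 70.07, 174 and 214 in bleomycin libraries (log2 5.88 ± 0.72, adjusted p = 0.00122), with log2 5.26 without saline replicate 1, 6.58 without saline replicate 3 and 4.40 at a pseudocount of 5. Like Pdgfa, it entered the test through bleomycin libraries alone. Its relative Nrg4 fell from 581, 618 and 454 to 323, 350.5 and 303 (log2 -0.75 ± 0.16, adjusted p = 0.0182). On leaving out any of saline replicates 1 and 2 and bleomycin replicates 2 and 5 the log2 change was -0.80 to -0.66 but missed the threshold (adjusted p = 0.0545 to 0.0889). Nrg4 shares exons with Fbxo22 on the opposite strand. Of the VEGF relatives, Pgf, placenta growth factor, had 38.2, 66.3 and 41.4 in saline, against 18.9, 33.0 and 35.3 in bleomycin libraries and did not pass (log2 -0.73 ± 0.37, adjusted p = 0.263), and Vegfc had 0 reads in saline and 18 in bleomycin libraries, which is at least 5.43-fold higher with saline set to 3 reads for the group.

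Of 14 listed receptors of the ligands, 10 were tested, of which Igf2r and Erbb3 rose and Flt1 fell (median log2 0.34), beside 9.76% and 3.9% over all tested genes. Flt1, which binds Vegfa, Vegfb and Pgf and also exists as a soluble trap, fell from 8597, 5337 and 6085 to 2902, 3123 and 3044 (log2 -1.11 ± 0.17, adjusted p = 0.00342). The groups did not overlap, so the change of Flt1 ran opposite to that of its ligand Vegfa in the same libraries. The co-receptors Nrp1 (log2 0.16 ± 0.16, adjusted p = 0.62) and Nrp2 (log2 0.57 ± 0.34, adjusted p = 0.352) did not pass. Erbb3, a receptor of Nrg1, had 75.5, 40.2 and 50.9 in saline, against 94.3, 115 and 141 in bleomycin libraries (log2 1.09 ± 0.30, adjusted p = 0.0437), and it did not pass in 11 of 18 alternative settings, among them those that drop any of saline replicates 2 and 3 and bleomycin replicates 2 and 5 (adjusted p = 0.107 to 0.19).

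Pdgfra, Pdgfrb, Egfr and Kdr, by which the ligands act on other cells, had few reads in every library. Pdgfra had 2.12 to 4.35 in saline and 11.2 to 12.6 in bleomycin libraries (log2 1.68 ± 0.51, adjusted p = 0.065), and Pdgfrb 0 to 5.43 and 9.48 to 10.8. Egfr had 0 reads in saline and 42 in bleomycin libraries (at least 12.7-fold higher), and Kdr 0 and 28 (at least 8.45-fold higher). At 3 reads, a value was 2.59 to 3.3 in these libraries, so such levels rest on a few reads each.

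Of 18 listed genes that mature or release the ligands, 15 were tested, 5 rose and 0 fell (median log2 0.37), beside 9.76% and 3.9% over all tested genes. Adam17, the main sheddase of Tgfa, Hbegf and Areg, had 7000.2, 8741 and 7596 in saline, against 7330.1, 9182 and 9253 in bleomycin libraries (log2 0.14 ± 0.14, adjusted p = 0.596). Its partner Rhbdf2, which carries it to the cell surface, had log2 0.18 ± 0.11 (adjusted p = 0.399), and Furin, which cuts the precursors of PDGF-A and PDGF-B, log2 -0.10 ± 0.16 (adjusted p = 0.758). Adam10 was higher in every bleomycin library, 6444, 7279 and 7257 against 5829, 5141 and 5267.5, and missed the threshold (log2 0.37 ± 0.11, adjusted p = 0.0572). The 5 rises were in Plat and Plau, given above, and in 3 further ADAM genes. Adam8 rose from 165, 122 and 118 to 1442, 4172 and 4267 (log2 4.46 ± 0.39, adjusted p = 0.000273), Adam19, which can cleave neuregulin, from 14.7, 9.78 and 3.18 to 125, 177 and 247 (log2 4.31 ± 0.51, adjusted p = 0.00105), and Adam15 from 3383, 2936 and 3343 to 6104, 5793 and 6300.1 (log2 0.92 ± 0.11, adjusted p = 0.00101).

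Of 17 listed feedback inhibitors of receptor tyrosine kinases, 14 were tested, 2 rose and 1 fell (median log2 0.17), near the 9.76% and 3.9% over all tested genes. Spry2 had 6.86, 1.09 and 17.0 in saline, against 143, 91.2 and 158 in bleomycin libraries (log2 4.27 ± 0.71, adjusted p = 0.005), with log2 3.43 without saline replicate 2 and 4.98 without saline replicate 3. Its paralog Spry1 went the other way, from 207, 232.5 and 235 to 132, 114 and 93.1 (log2 -0.997 ± 0.199, adjusted p = 0.0118), and did not pass without bleomycin replicate 2 or 5 (adjusted p = 0.0508 and 0.0611). Socs3, an inhibitor of cytokine receptor signalling, rose (log2 2.09 ± 0.58, adjusted p = 0.0454) but not in 8 of 18 alternative settings, edgeR and DESeq2 included (adjusted p = 0.0905 and 0.115), with log2 1.47 without saline replicate 1 and 2.79 without saline replicate 2. Errfi1, an inhibitor induced by EGF receptor signalling, had log2 0.67 ± 0.25 (adjusted p = 0.125), and Dusp6, a phosphatase of ERK, log2 -0.26 ± 0.32 (adjusted p = 0.689).

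**Figure D4:**
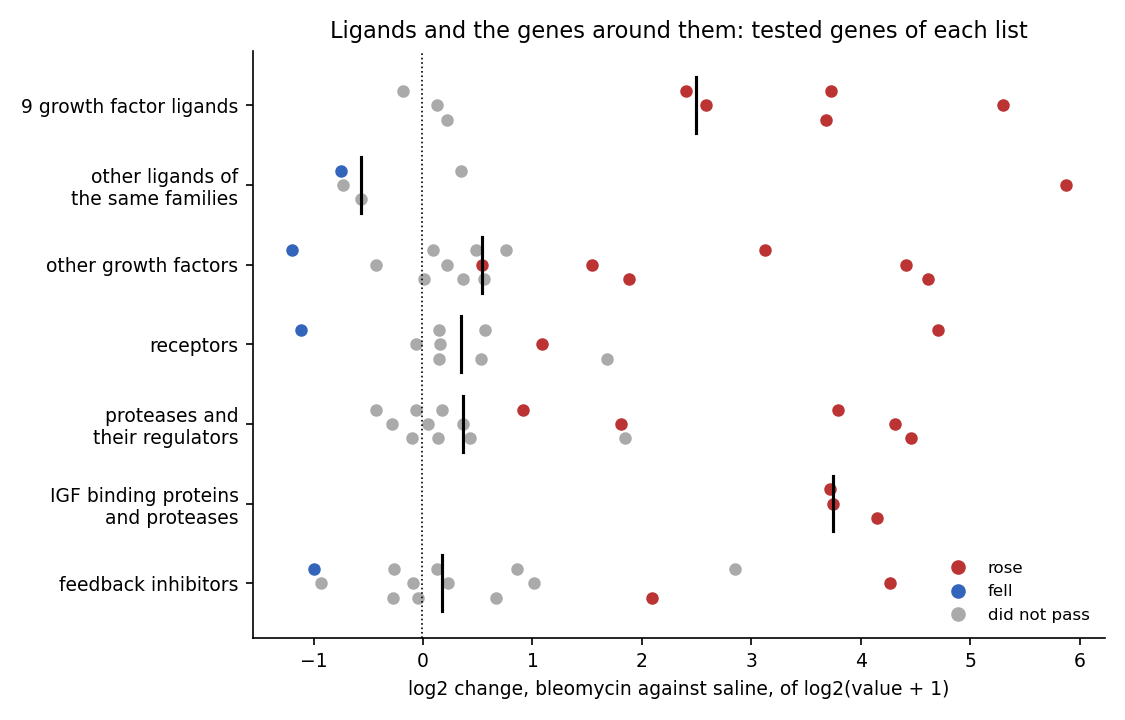
Log2 change, bleomycin against saline, of log2(value + 1) (horizontal axis) for the tested genes of each list, 1 point per gene, red for rises, blue for falls and grey for genes that did not pass; black bars are list medians and the dotted line is the median of all 13512 tested genes. The median is 2.49 for the ligand list and 3.75 for the IGF binding proteins and their proteases, of which 3 were tested. It is 0.34 for the receptors and 0.17 for the feedback inhibitors. Every list holds at least 1 gene that entered the test through bleomycin libraries alone.

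Among the bleomycin libraries, replicate 1 was the lowest for each of the 5 rising ligands, as it was for 79.5% of the 1319 genes that rose and for 9 of 9 markers of monocyte-derived macrophages. The distance was largest for Vegfa (181 against 560.4 and 665) and small for Pdgfa and Hbegf. Summed over their list, monocyte-derived markers were at 3120.1, 2601 and 3270 in saline, against 135853, 229014 and 253977 in bleomycin libraries. Apoe alone made up most of the bleomycin sums (112162, 183748 and 203688). The bleomycin libraries ran in the same order for Igf1, Hbegf and Vegfa, whereas Pdgfa and Pdgfb were highest in replicate 2. In saline libraries the order of the sum was that of none of the 5 ligands. Whether the rises reflect newly arrived macrophages or a change in resident ones was not tested and cannot be told apart in these libraries.

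Some markers of other cells that make or answer these growth factors were higher in bleomycin libraries too. Of 10 markers of alveolar epithelium, 6 rose and 1, Epcam, fell. The surfactant gene Sftpc went from 46.1, 36.9 and 41.4 to 206, 341 and 479, and Ager, of type 1 cells, from 78.4, 41.3 and 63.6 to 214, 317.5 and 393, so both were lowest in bleomycin replicate 1. Hopx, which also rose (204, 144 and 111 in bleomycin replicates 1, 2 and 5), and Epcam (1965, 1154 and 1160) were highest there. The summed list was 6851 to 8754 in saline and 5746 to 6095 in bleomycin libraries. It was led by Epcam, Cdh1 and Abca3 (means 4378, 1894 and 1456 in saline, beside 41.5 for Sftpc), so the sum does not follow Sftpc or Ager. Of 7 fibroblast markers Col3a1 and Dcn rose, Dcn having entered the test through bleomycin libraries alone, and the sum of the list was 35.3, 58.7 and 321 in saline, against 851, 219 and 669 in bleomycin libraries. The sum followed Col1a1 (420, 51.6 and 275 in bleomycin replicates 1, 2 and 5) and Col1a2, which did not pass, whereas Col3a1 had 61.1, 56.04 and 72.4 and Dcn 39.5, 43.9 and 75.0. Lum and Tcf21, under the filter, had 0 reads in every saline library and nearly none after bleomycin. Lum had 0, 4 and 1 reads and Tcf21 2, 0 and 0 in bleomycin replicates 1, 2 and 5. Of 10 T cell and innate lymphoid markers 9 rose, of which 6 entered the test through bleomycin libraries alone, and their sum was 46.7 to 110.8 in saline and 1103 to 2922 in bleomycin libraries. Of 6 dendritic cell markers 4 rose (sums 285 to 631 and 989 to 2126), and of 5 B cell markers both that were tested rose, Cd79a through bleomycin libraries alone (sums 16.3 to 20.6, then 83.5, 1002 and 649, lowest in bleomycin replicate 1). Of 8 neutrophil markers 4 were tested, and S100a8 and Cxcr2 rose (sums 1464 to 2862 and 2927 to 3213). S100a9 (4.9, 503 and 7.42 in saline, against 20.7, 56.0 and 37.1 in bleomycin libraries) did not pass. Csf3r (means 1249 and 1125) did not pass either, and Retnlg and Camp were under the filter. Of 6 markers of mesothelium and pericytes or smooth muscle, 3 were tested and 1 rose. This was Cspg4, listed for pericytes, from 347, 265 and 127 to 888, 901 and 1221. Acta2 (means 168 in saline and 132 in bleomycin libraries) and Msln did not pass, and Pdgfrb and Myh11 were under the filter. Platelet and megakaryocyte markers, of which 0 of 3 tested passed, summed to 98.1 to 336 in saline and 117 to 178 in bleomycin libraries, and Gp9 had 0 reads in every bleomycin library. Endothelial markers, of which 0 of 2 tested passed, summed to 2106 to 2330.5 and 2675 to 3038, nearly all of it Vwf. The part of these cells in the levels of the ligands was not tested.

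**Figure D5:**
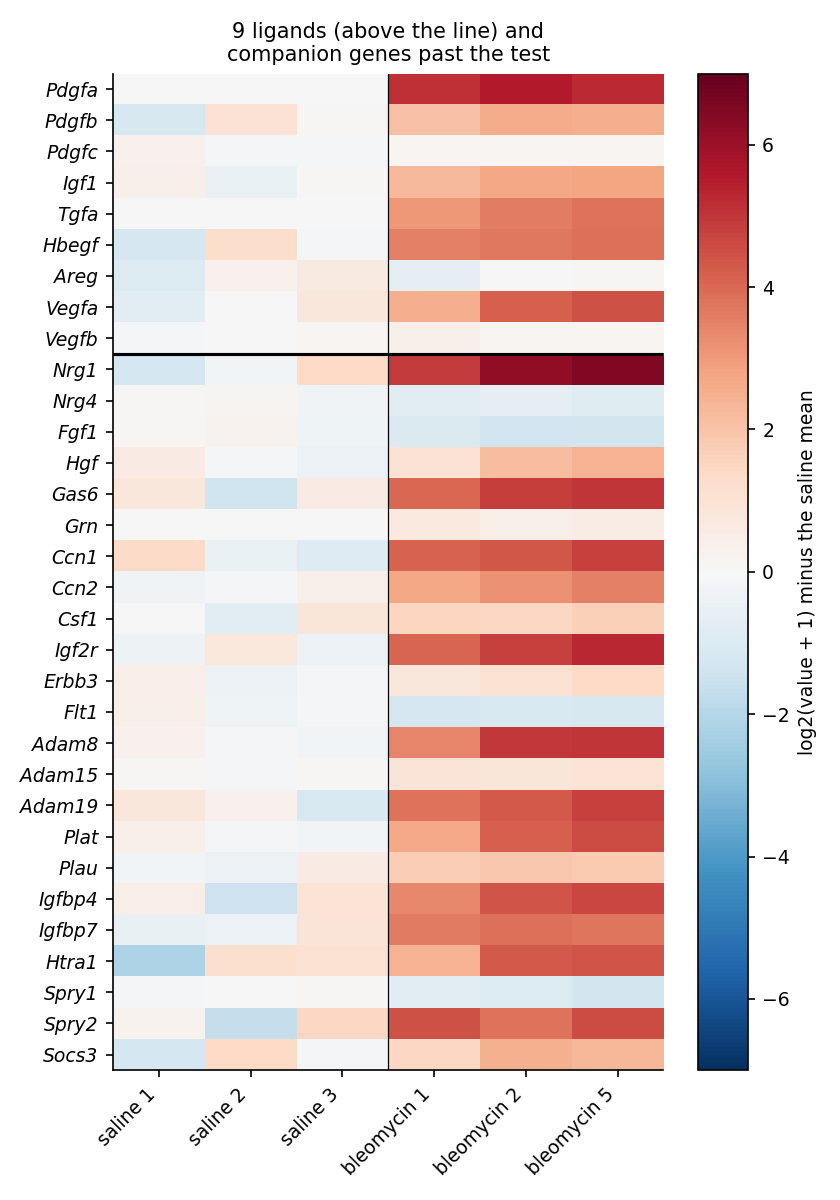
Each cell gives log2(value + 1) minus the mean of the 3 saline libraries for a gene (rows: the 9 ligands above the line, then the 23 companion genes past the test) in each of the 6 libraries (columns), red for higher and blue for lower. The rises are paler in bleomycin replicate 1 than in replicates 2 and 5 for Vegfa, and Pdgfc and Vegfb stay near 0 in all 3 bleomycin libraries.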

How the data were processed

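Per the labels' protocols, total RNA of plate-adherent lavage cells was sequenced. The submitters' processing notes name the build mm10 and the tools HTSeq 0.6.0, STAR 2.5.2b, DESeq2 and bcl2fastq 2.18.0.12. The roles of these tools, the gene annotation, the strand setting and any filter were not given in the sources used here. What the authors deposited is a normalized signal, in which each library's read counts per gene share 1 scaling factor. Dividing by the value of 1 read gave whole reads for 100% of values above 0 (within 0.05 of a read), and size factors recomputed by the DESeq2 method equalled those implied. A symbol was found for 22873 of 22962 identifiers, with exon lengths and positions from GENCODE on GRCm38, the assembly named mm10.

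Samples were grouped by the treatment in their titles. limma 3.58.1 (R 4.3.3) was fitted on log2(value + 1) with an intensity trend, two-sided, and Benjamini-Hochberg adjusted over all 13512 tested genes. For low genes, a change on this scale can lie below or above that of fits on reads. For Pdgfa it was log2 5.30, against 5.46 by edgeR and 5.48 by DESeq2. For Hbegf it was log2 3.68, against 3.43 and 3.44. Alternatives were other pseudocounts, filters and normalizations, robust or untrended variances, edgeR 4.0.16 and DESeq2 1.42.0 on recovered reads (1303 and 1544 rises, 518 and 769 falls), a replicate block and left-out libraries. With a library left out, fewer libraries had to reach the filter value. The fit was tested on simulated data. Family make-up was compared by exact permutation over libraries. Intervals and floors cover counting error or replicate spread only. The ligands, the lists and the rule for naming genes (all 9 ligands, up to 6 genes past the test in each list by smallest p, a set of main relatives, receptors and proteases whatever their result, and the nearest profile to each rising ligand) were chosen with earlier results of these data known.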

Additional observations from a re-analysis of the deposited data

How the results depend on the processing

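The rises of Pdgfa, Pdgfb, Igf1, Hbegf and Vegfa passed in all 18 alternative settings, Pdgfc, Areg and Vegfb passed in none of them, and 0 ligands fell. With a filter Pdgfa always entered through bleomycin libraries alone, as did Hbegf at a minimum of 50. Tgfa, at 0 in saline, passed in the 6 settings in which it could be tested, but with a filter it entered only through bleomycin libraries, so a count of 6 rises is no added support. The log2 change of Areg lay between -0.66 and 0.12 when 1 library was left out: it was positive without saline replicate 3 (0.12) and without bleomycin replicate 1 (0.04), and also when saline replicate 2 and bleomycin replicate 1 were dropped at once (0.20). The cause was not tested. Leaving out 1 library gave 759 to 1609 rises and 182 to 629 falls over all genes, 13 to 25 rises and 2 to 5 falls over the 6 companion lists (19 and 4 with all libraries), and differences in family share of 19.2 to 20.9, 8.16 to 9.52 and 10.2 to 17.3 points for Pdgfa, Hbegf and Vegfa. Over all genes the counts were highest without bleomycin replicate 1 and lowest without bleomycin replicate 5, and the cause was not tested. Bleomycin replicates 2 and 5 were closer to each other than any other pair of libraries (chi-square of recovered reads per gene, 18.5). Bleomycin replicate 1 differed from them by 79.8 and 92.1, and saline libraries differed from each other by 51.1 to 73.4. Whether bleomycin replicates 2 and 5 came from separate mice is not stated in the labels. Not dividing by exon length gave 14.6, 16.8 and 26.1 points, and putting the neuregulins in the EGF family sum, an alternative chosen after seeing the data, 7.79 points for Hbegf. With the replicate number as a block, 194 genes fell (953 rose), 2 companion genes fell, the calls of the ligands were the same, and Nrg4, Erbb3, Spry1 and Grn no longer passed. The numbers do not pair the samples: deviations from the group means correlated at -0.20 between the libraries numbered 1 and 0.02 between those numbered 2, and numbers 3 and 5 each occur in 1 group. Under the block each change therefore rested on replicates 1 and 2 of each group, so passes under it add no support. Depth limits the statements on Tgfa, Egfr, Kdr, Plat and other genes of a few reads.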

Other observations

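Other growth factors that macrophages or injured lung can make moved in both directions. Of 25 listed, 15 were tested, 6 rose and 1 fell, beside 9.76% and 3.9% over all tested genes (median log2 0.54, against -0.01 over all tested genes). With so few genes the counts show nothing particular to the list. Hgf, hepatocyte growth factor, a mitogen of epithelium, had 306, 180.4 and 149.5 in saline, against 416, 922 and 1086 in bleomycin libraries (log2 1.88 ± 0.38, limma adjusted p = 0.0131), and did not pass without bleomycin replicate 2 or 5 (adjusted p = 0.052 and 0.0527). Gas6, a ligand of the TAM receptors that clear dead cells, rose from 13.7, 2.17 and 11.7 to 133, 241 and 269.8 (log2 4.62 ± 0.59, adjusted p = 0.00147), or log2 3.92 without saline replicate 2. The matricellular genes Ccn1 and Ccn2 rose from low levels, Ccn1 from 13.7, 3.26 and 2.12 to 98.8, 118 and 158 (log2 4.41 ± 0.57, adjusted p = 0.00159, or log2 5.08 without saline replicate 1) and Ccn2 from 2.94, 3.26 and 5.3 to 29.6, 41.8 and 52.6 (log2 3.12 ± 0.44, adjusted p = 0.00228), which entered the test through bleomycin libraries alone. Csf1, the growth factor of macrophages themselves, rose (log2 1.54 ± 0.34, adjusted p = 0.0192), though not without bleomycin replicate 2 or 5 (adjusted p = 0.0507 and 0.0699) or with no intensity trend (0.0645). Grn, progranulin, rose by log2 0.54 ± 0.12 (adjusted p = 0.0192) but not when any of saline replicates 2 and 3 and bleomycin replicates 2 and 5 was dropped (adjusted p = 0.0529 to 0.0929). Fgf1, an acidic fibroblast growth factor, was the gene that fell, from 240.2, 269 and 191 to 115, 91.2 and 95.7 (log2 -1.20 ± 0.21, adjusted p = 0.00626). The summed fibroblast markers were 35.3, 58.7 and 321 in saline, against 851, 219 and 669 in bleomycin libraries, and their part in these changes was not tested.

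For each rising ligand, the tested gene with the most similar profile over the 6 libraries was found by the root mean square distance on the log2 scale after subtracting the saline mean. It was Slamf7 for Pdgfa (distance 0.22), Gpr176 for Pdgfb (0.21), Itgb7 for Igf1 (0.095), Fam20c for Hbegf (0.28) and Wwc1 for Vegfa (0.18). Slamf7 went from a mean of 64.4 in saline to 2800.1 in bleomycin libraries, Itgb7 from 45.4 to 294 and Fam20c from 424 to 3975. Gpr176 went from a mean of 8.18 to 38.2 and Wwc1 from 3.90 to 61.6. The matches of Pdgfb and Vegfa therefore rest on low saline values.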
